A study of Homo sapiens with 6 samples.

Results

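Imprinted genes, of which PEG10 separated the lines most, were followed in wild-type and BRCA2-deficient HCT116 cells. HCT116 is a colon carcinoma line of human origin, and BRCA2 loads the recombinase onto broken DNA during homologous recombination. The set held 8 genes, PEG10, SGCE, MEST, PEG3, CDKN1C, IGF2R, GRB10 and PLAGL1. They were selected on earlier results of these same arrays, in which PEG10 was much lower in the knockout while its neighbour SGCE changed little. Their differences between the genotypes are therefore given as a description, without a test. A gene counted as measured where a probe set carried its symbol and no other, which held for 5 of the 8, out of 13139 genes measured in this way. PEG10, SGCE, MEST, CDKN1C and GRB10 had 1 such probe set each. PEG3, IGF2R and PLAGL1 were not measured under this rule, since their probe sets were also annotated to ZIM2, CHP1P2 and HYMAI, respectively.

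The wild-type cells came from ATCC, and the BRCA2-/- cells were made from this background by targeting both alleles of the gene one after the other. No other treatment is named for either genotype. Each genotype has 3 arrays, which the labels call technical replicates, and no separate cultures or knockout clones are named. P-values thus measure only the spread between these arrays, and the loss of BRCA2 cannot be told apart from other differences between the lines. BRCA2 itself was not analysed here.

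Genomic imprinting silences the copy of a gene that came from 1 parent, through DNA methylation set in the germ line and maintained at each cell division. Paternally expressed genes often favour growth and maternally expressed genes often restrain it, and many are most active in the fetus and the placenta. PEG10 and SGCE lie head to head on chromosome 7, and both are expressed from the paternal copy. PEG10 derives from a retrotransposon and is needed for the placenta, and SGCE encodes epsilon-sarcoglycan, a membrane protein of the dystrophin-associated complex. MEST, a paternally expressed gene elsewhere on chromosome 7, encodes a hydrolase-like membrane protein. CDKN1C, a maternally expressed gene on chromosome 11, encodes an inhibitor of cyclin-dependent kinases. GRB10, on chromosome 7, encodes an adaptor that binds and restrains the receptors for insulin and insulin-like growth factors, and the parental copy in use differs between tissues.

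Promoter windows from RefSeq (build GRCh38.p14) were matched for 4 of the 8 genes, MEST, IGF2R, GRB10 and PLAGL1. CpG dinucleotides, the sites at which imprints are methylated, were counted in the 250 bases before each annotated start. MEST had 5 starts with 9 to 20 CpG, and GRB10 had 5 with 2 to 40. All 35116 windows in the table had a median of 11 CpG, with quartiles of 3 and 23. The window before the outermost start is shown for MEST and GRB10, the measured genes with an entry, as 1 window with a CpG count near the median and 1 far above it. It lies at chr7:130485925-130486174 on the plus strand for MEST and at chr7:50793454-50793703 on the minus strand for GRB10. Capitals mark TGCCGC or its reverse complement GCGGCA, the letters that ZFP57, a zinc finger protein that protects imprints, recognises when methylated.
MEST: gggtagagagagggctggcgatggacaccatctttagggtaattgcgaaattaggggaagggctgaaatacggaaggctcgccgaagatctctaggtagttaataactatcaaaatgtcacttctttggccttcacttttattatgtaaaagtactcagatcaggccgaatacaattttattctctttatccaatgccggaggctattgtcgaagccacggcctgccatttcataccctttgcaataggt
GRB10: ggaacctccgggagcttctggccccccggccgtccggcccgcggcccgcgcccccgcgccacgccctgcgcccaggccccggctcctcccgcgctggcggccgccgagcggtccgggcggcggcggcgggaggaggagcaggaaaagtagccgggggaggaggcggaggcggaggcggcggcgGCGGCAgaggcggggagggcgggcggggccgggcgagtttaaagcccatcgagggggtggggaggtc
The MEST window held 9 CpG at a GC content of 44.0% and no match, and the GRB10 window held 37 CpG at 81.6% and 1 match. Of all windows, 45.9% held fewer CpG than the MEST window and 96.0% fewer than the GRB10 window. A match on either strand was present in 12.7% of all windows, and in 1 of the 5 starts of MEST and 1 of the 5 of GRB10. The single IGF2R window held 33 CpG, and the 5 PLAGL1 windows held 1 to 32. These counts describe sequence alone, as methylation was not measured on the arrays. The 2 windows shown were picked by position, and whether either lies in an imprinted region was not tested.

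PEG10 had the largest difference of the measured genes. Its log2 probe set values were 8.99, 8.72 and 8.79 in wild type and 4.77, 5.69 and 4.46 in knockout, in the order of the array numbers 1 to 3 used throughout. The wild-type arrays lay close together and all knockout arrays far below them, with array 2 the highest of the knockouts. The means were 8.84 ± 0.14 and 4.98 ± 0.64 (SD, n = 3), a log2 difference of -3.86 ± 0.36 (SE), which is 14.5-fold in probe set values. The deposited values carry no detection calls. The list means of leukocyte and trophoblast markers ran from 4.95 to 5.82 and from 5.22 to 6.26 over the knockout arrays. PEG10 was below both on knockout arrays 1 and 3. On knockout array 2 it was at 5.69, above both list means of that array, 4.95 and 5.22. With values this near those of the markers, PEG10 is not shown to be above background in the knockout. The fold is thus no exact measure of the change in RNA. The PEG10 range within a genotype was 0.27 in wild type and 1.23 in knockout. With each array's median over all probe sets subtracted, these ranges were 0.09 and 0.85, and the difference was -3.89 ± 0.29 (SE).

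SGCE, which faces PEG10 across a shared promoter region, differed far less. It was at 8.51, 8.18 and 8.61 in wild type and at 7.50, 8.44 and 7.44 in knockout. Knockout arrays 1 and 3 were below every wild-type array and knockout array 2 was above wild-type array 2, so the groups overlapped. The means were 8.43 ± 0.22 and 7.79 ± 0.56 (SD, n = 3), a difference of -0.64 ± 0.35 (SE), or 1.56-fold lower. This overlap turned on the scaling of the arrays. Knockout array 2 had the highest median of the 6, 7.80, against 7.41 on both other knockout arrays and 7.36 to 7.71 in wild type. With the medians subtracted, SGCE was at 0.79, 0.83 and 1.13 in wild type and at 0.08, 0.64 and 0.03 in knockout. The groups then did not overlap, and the difference was -0.66 ± 0.28 (SE). On that scale 10.8% of all probe sets were lower in the knockout without overlap.

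A shift shared by all probe sets of an array cancels when the neighbours are compared on the same array. The PEG10 value minus the SGCE value was 0.49, 0.54 and 0.18 in wild type and -2.72, -2.75 and -2.98 in knockout. Each genotype was tight, and knockout array 2 lay with the other knockouts. The mean was 0.40 ± 0.19 in wild type against -2.82 ± 0.15 in knockout (SD, n = 3). The gap changed by -3.22 on the log2 scale, again with knockout PEG10 values not shown to be above background, and as the contrast that chose the set it is given as a description. The gap within a genotype also depends on how each probe set hybridises, so only its change between genotypes is interpretable.

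**Figure D1:**
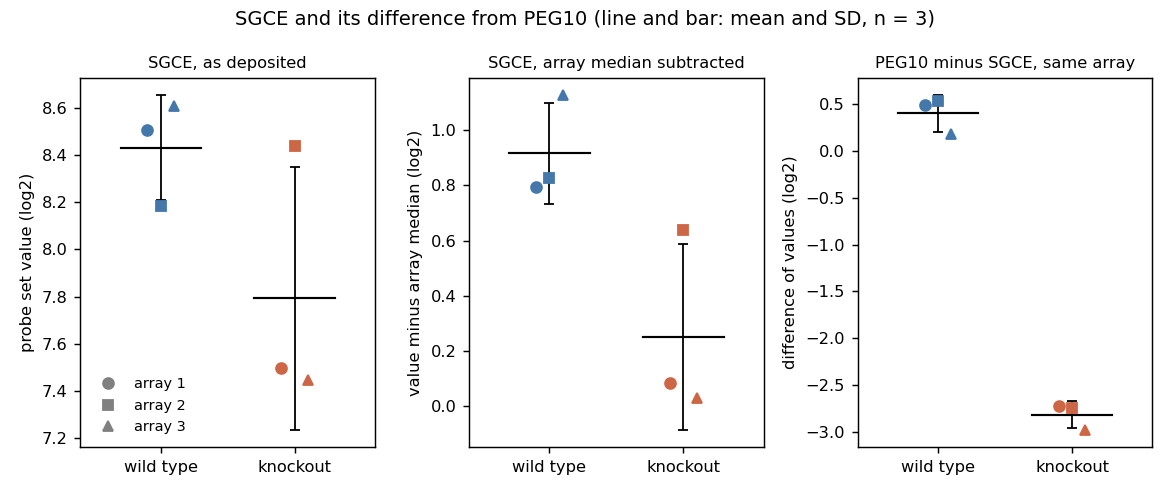
SGCE log2 values as deposited, SGCE log2 values with each array's median subtracted, and the PEG10 value minus the SGCE value on the same array, for 3 wild-type and 3 knockout arrays (points; line and bar, mean and SD). Knockout array 2 is at 8.44 as deposited, within the wild-type range, at 0.64 after subtraction, below it, and at -2.75 in the gap to PEG10, beside the other knockout arrays.

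Of the remaining measured genes, MEST and CDKN1C overlapped between the genotypes and GRB10 did not. MEST was at 7.74, 6.76 and 7.37 in wild type and at 6.70, 7.63 and 6.94 in knockout. The highest MEST value of each genotype was on its array of highest median, wild-type array 1 and knockout array 2. The means were 7.29 ± 0.50 and 7.09 ± 0.48 (SD, n = 3), a difference of -0.20 ± 0.38 (SE). Subtracting the medians narrowed the MEST range from 0.98 to 0.62 in wild type and from 0.92 to 0.54 in knockout.

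CDKN1C, the cell cycle brake of the set, was at 7.93, 9.02 and 8.75 in wild type and at 8.85, 8.64 and 9.10 in knockout. The same pair of arrays that were highest for MEST were lowest for CDKN1C. The means were 8.57 ± 0.57 and 8.86 ± 0.23 (SD, n = 3), a difference of 0.29 ± 0.35 (SE). Subtracting the medians widened the CDKN1C range from 1.09 to 1.45 in wild type and from 0.46 to 0.84 in knockout.

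GRB10 was at 9.17, 9.19 and 9.19 in wild type and at 9.59, 10.08 and 10.01 in knockout. Every knockout array was above every wild-type array. The means were 9.18 ± 0.01 and 9.90 ± 0.26 (SD, n = 3), a difference of 0.71 ± 0.26 (SE), or 1.64-fold higher. The narrow GRB10 range in wild type, 0.03, held only for the values as deposited and was 0.38 with the medians subtracted. The difference was then 0.69 ± 0.26, again without overlap. As deposited, 2 of the 5 measured genes did not overlap, PEG10 lower and GRB10 higher. Over all probe sets 19.7% did not overlap, 12.0% higher and 7.70% lower, and since the set was chosen on this contrast nothing is read from the count.

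**Figure D2:**
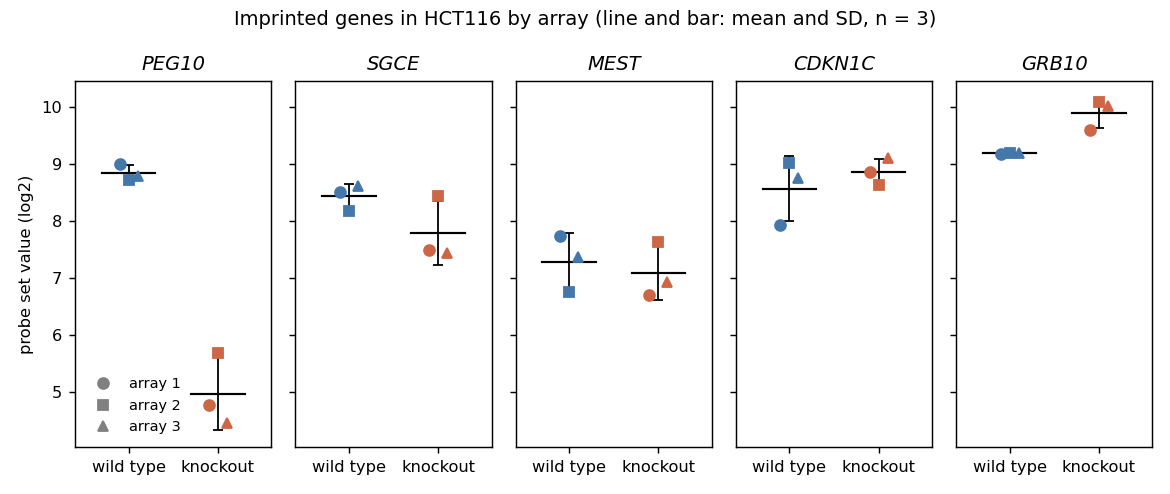
Log2 probe set values of PEG10, SGCE, MEST, CDKN1C and GRB10 on 3 wild-type (blue) and 3 knockout (orange) arrays, with mean and SD. The mean of PEG10 is 8.84 in wild type and 4.98 in knockout and that of GRB10 9.18 and 9.90, both without overlap, while the arrays overlap for SGCE, MEST and CDKN1C.

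The next comparison asked whether genes around PEG10 on chromosome 7 differed with it. Of the 10 measured genes on each side in RefSeq order, 12 were higher and 8 lower in BRCA2-/- cells (median 0.14, against 0.02 over all probe sets). In limma 0 of the 20 were called at an adjusted p under 0.05, where 0.570% of all probe sets were. An unadjusted p under 0.05 was reached by 0 of the 20, against 12.2% of all probe sets. Several of the 20 were low already in wild type, with means of 2.58 in HEPACAM2, 3.83 in GNGT1, 4.09 in ASB4, 4.50 in PON1, 4.51 in TAC1 and 4.61 in TFPI2. Leukocyte marker list means ran from 4.89 to 5.92 over the wild-type arrays, so a fall in these genes might not show. Others were well above that level, as BET1 at 9.04 and PON2 at 9.55. As deposited, the arrays of the genotypes overlapped for each of the 20. With the medians subtracted SGCE no longer overlapped, and overlap of the other neighbours on that scale was not examined. SGCE, itself selected on this contrast, is among the 20. The median was 0.058 with values under 4 set to 4, 0.076 without knockout array 3, 0.24 without wild-type array 1, -0.13 without wild-type array 2 and -0.032 without wild-type array 3.

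On the SGCE side the nearest were the sialic acid acetyltransferase gene CASD1 at -0.04 ± 0.56 (log2 difference ± SE), the collagen gene COL1A2 at 0.36 ± 0.42, the vesicle transport gene BET1 at 0.29 ± 0.30 and the transducin gene GNGT1 at -0.52 ± 0.69. On the other side came the paraoxonase genes PON1 (-0.51 ± 0.82) and PON2 (0.03 ± 0.40), ASB4 (0.96 ± 0.67), the pyruvate dehydrogenase kinase gene PDK4 (0.11 ± 0.37) and the dynein gene DYNC1I1 (0.41 ± 0.31). PON2 was at 9.94, 8.93 and 9.78 in wild type and at 9.46, 10.15 and 9.14 in knockout, with its highest values on the pair of arrays of highest median. CASD1 was also highest on this pair, at 7.78, 6.11 and 6.59 against 6.21, 7.71 and 6.45. The farthest of the 20, the tachykinin gene TAC1, had a difference of -3.75 ± 3.05, near that of PEG10 in size, but it came from 1 value of -7.28 on knockout array 2. The other TAC1 values lay between 3.56 and 5.33.

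**Figure D3:**
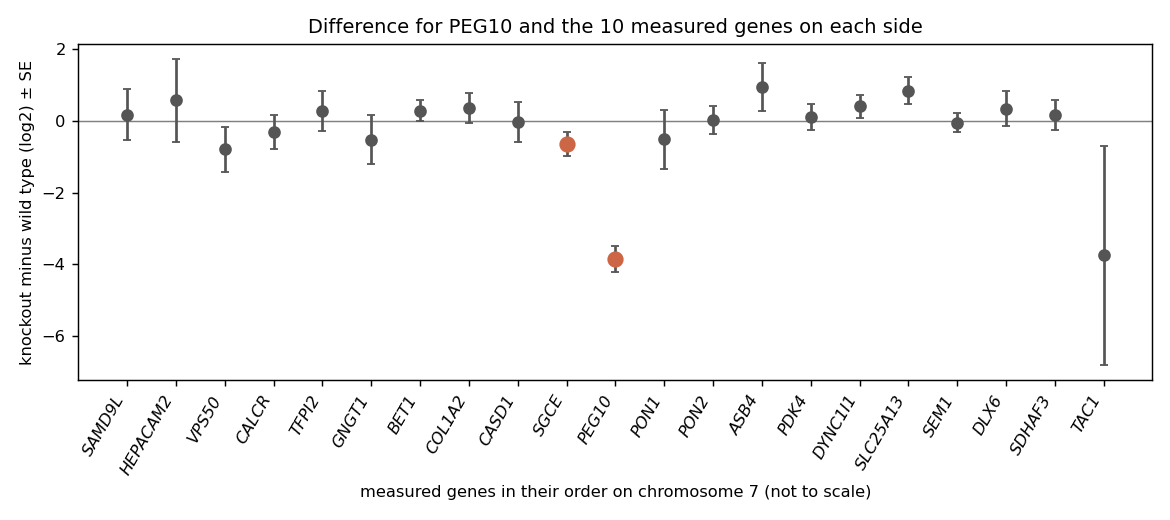
Log2 difference, knockout minus wild type, with its SE, for PEG10 and the 10 measured genes on each side in their order along chromosome 7. PEG10 is at -3.86 and SGCE beside it at -0.64 (both orange), and the other genes lie between -0.79 and 0.96 except TAC1, whose wide bar comes from 1 array.

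The neighbours of MEST, CDKN1C and GRB10, 5 on each side, gave 0 calls in limma, with 1, 3 and 1 of 10 at an unadjusted p under 0.05. Over all probe sets 0.570% were called and 12.2% had such a p. At MEST, 5 were higher and 5 lower (median -0.22). The median was -0.084 without the dimmest 30% of probe sets, 0.14 with values under 4 set to 4, 0.31 without both wild-type array 1 and knockout array 2, 0.50 without knockout array 2, -0.074 without wild-type array 1 and -0.037 without wild-type array 3. The nearest were the centrosomal gene CEP41 at -0.51 ± 0.57 (SE) and the carboxypeptidase gene CPA1 at 0.30 ± 0.44 on one side, and the imprinted transcription factor gene KLF14 at 0.56 ± 0.36 and MKLN1 at -0.47 ± 0.49 on the other. At GRB10, 8 were higher and 2 lower (median 0.49). The median was 0.30 without knockout array 1, 0.30 without knockout array 3, 0.19 without wild-type array 1 and 0.80 without wild-type array 2. The adjacent actin nucleator gene COBL was at 7.93, 7.71 and 7.39 in wild type and at 8.16, 9.04 and 8.63 in knockout, without overlap (0.93 ± 0.32, adjusted p = 0.307 in limma). POM121L12 beyond it was at 0.29 ± 0.34, and on the other side DDC, which encodes an imprinted aromatic amino acid decarboxylase, was at 0.48 ± 0.41 and FIGNL1 at 0.04 ± 0.43.

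The genes around CDKN1C on chromosome 11, a large imprinted cluster, differed in both directions. Of 10 neighbours 4 were higher and 6 lower (median -0.40), and 6 did not overlap, 4 lower and 2 higher, where over all probe sets 19.7% did not, 7.70% lower and 12.0% higher. KCNQ1DN was at 5.94, 5.03 and 5.51 in wild type and at 4.56, 3.49 and 4.50 in knockout (-1.31 ± 0.40, SE, adjusted p = 0.255 in limma). OSBPL5, which encodes a lipid-binding protein, was at 8.64, 8.94 and 8.77 against 7.86, 8.12 and 7.81 (-0.86 ± 0.25, adjusted p = 0.238). Both genes were lower on every knockout array. KCNQ1DN lay under the knockout list means of leukocyte and trophoblast markers, 4.95 to 6.26, and is not shown to be above background there. The transporter gene SLC67A1, annotated under its older symbol SLC22A18, was at -0.67 ± 0.31 without overlap, and PHLDA2, a brake on placental growth, at -0.47 ± 0.30 with overlap. The potassium channel gene KCNQ1 was higher on every knockout array, at 7.53, 8.05 and 7.87 against 8.25, 8.23 and 8.90 (0.64 ± 0.30, adjusted p = 0.458). These 5 genes are also counted in the list of imprinted genes described next, as are the neighbours TFPI2 of PEG10, KLF14 of MEST and DDC of GRB10.

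A list of 57 further imprinted genes was then examined, of which 32 were measured. In limma 0 of the 32 were called, and 6 had an unadjusted p under 0.05, 2 higher and 4 lower (18.8%, against 12.2% of all probe sets). The list had 18 genes higher and 14 lower (median 0.15), and 51.3% of all probe sets were higher. The median was 0.053 without both wild-type array 1 and knockout array 2, 0.025 without knockout array 1, 0.038 without knockout array 3, 0.055 without wild-type array 1 and 0.083 without wild-type array 3. A difference of at least 1 in size was seen for 4 of the 32, against 9.52% of all probe sets, and of at least 2 for 0, against 1.82%. Groups did not overlap for 8 genes, or 25.0%, against 19.7% of all probe sets. Of these, 3 were higher and 5 lower.

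Both parental classes were mixed in direction. Of 15 maternally expressed genes, the class of CDKN1C, 9 were higher and 6 lower (median 0.25). The median was 0.07 without both wild-type array 1 and knockout array 2 and 0.11 without wild-type array 1. Of 14 paternally expressed genes, the class of PEG10, 7 were higher and 7 lower (median -0.05). Over 14 alternatives the paternal median lay between -0.18 and 0.0096. Among the paternally expressed genes, NAP1L5, a relative of nucleosome assembly proteins, was at 6.13, 6.18 and 6.25 in wild type and at 5.11, 5.38 and 4.22 in knockout (-1.29 ± 0.35, SE, adjusted p = 0.213 in limma). FAM50B was at 5.36, 6.06 and 5.51 against 4.27, 4.54 and 4.34 (-1.26 ± 0.28, adjusted p = 0.147). Both were lower on every knockout array. Leukocyte and trophoblast marker list means ran from 4.89 to 6.02 over the wild-type arrays and from 4.95 to 6.26 over the knockout arrays. NAP1L5 and FAM50B lay near these means in wild type and near or under them in knockout. As with PEG10, neither is shown to be above background in the knockout, so the size of its difference is not determined.

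On the higher side, PXDC1 had the largest value of the 32, 1.00 ± 0.44 (SE), with overlap between 7.82, 6.60 and 7.38 in wild type and 8.07, 8.96 and 7.80 in knockout. The acetyltransferase gene NAA60 was at 9.55, 9.24 and 9.56 against 10.32, 10.16 and 10.10 (0.74 ± 0.25, adjusted p = 0.289 in limma). BLCAP was at 9.64, 10.02 and 10.00 against 10.44, 10.48 and 10.90 (0.72 ± 0.27, adjusted p = 0.354). NAA60 and BLCAP were higher on every knockout array without passing the test. DIRAS3, which encodes a growth-restraining GTPase, was at -0.68 ± 0.36 and PHACTR2 at 0.64 ± 0.48. Differences were smaller for GNAS, which encodes a G protein subunit (-0.11 ± 0.24), for the Notch ligand relative DLK1 (0.01 ± 0.40) and for the ubiquitin ligase gene UBE3A (0.36 ± 0.31).

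**Figure D4:**
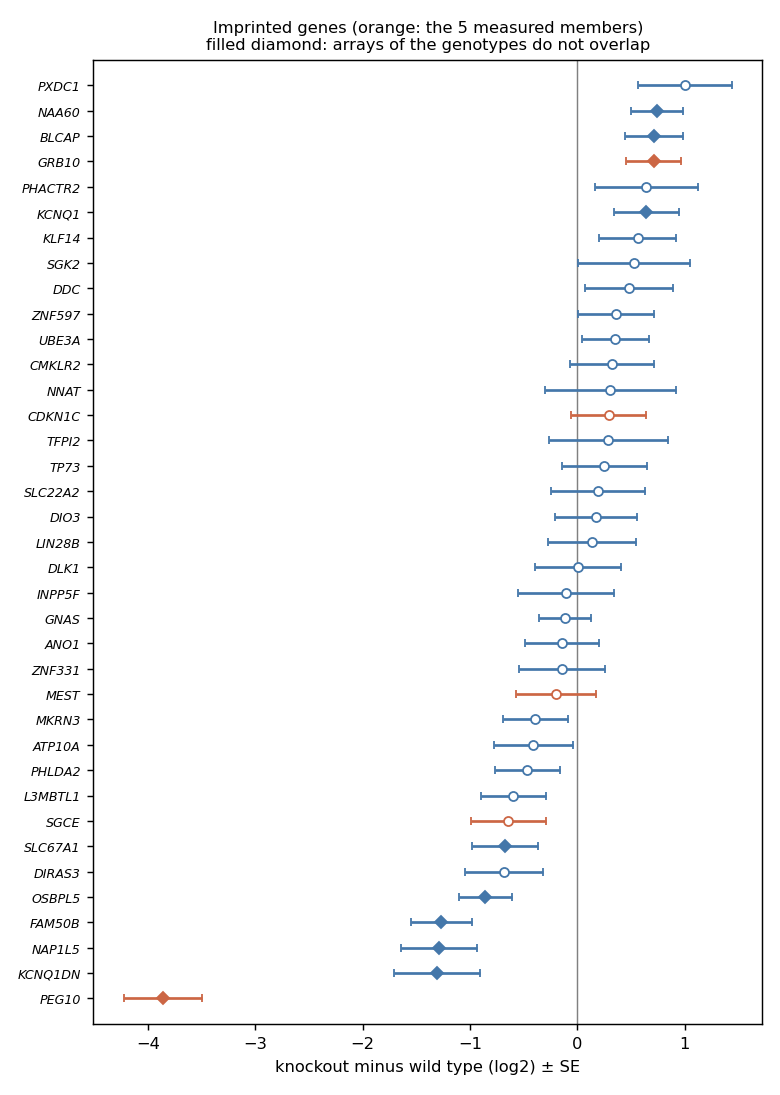
Log2 difference, knockout minus wild type, with its SE, for the 5 measured genes of the set (orange) and 32 other imprinted genes (blue), ordered by size; filled diamonds mark genes whose arrays do not overlap. PEG10 is at -3.86, and the 32 others run from -1.31 in KCNQ1DN to 1.00 in PXDC1.

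Genes that write, maintain, read or erase imprints were compared because methylation keeps the maternal copy of PEG10 silent. Of 19 measured, 8 were higher and 11 lower (median -0.14). In limma 0 were called and 1 had an unadjusted p under 0.05 (5.26%, against 12.2% of all probe sets). The genotypes did not overlap for 2, 0 higher and 2 lower (10.5%, against 19.7% of all probe sets). The median was 0.10 without knockout array 1, -0.57 without knockout array 2, 0.032 without knockout array 3, 0.14 without wild-type array 1 and -0.46 without wild-type array 2. The gene with that p was DNMT1, the maintenance DNA methyltransferase, at 10.45, 10.53 and 10.27 in wild type and at 9.31, 9.56 and 9.47 in knockout. All knockout arrays were below all wild-type arrays, and the difference was -0.97 ± 0.24 (SE, adjusted p = 0.180 in limma, and 0.0354 where the variance was allowed to follow the level). CTCF, which encodes an insulator protein that reads methylation, was also without overlap, at -0.49 ± 0.26 (adjusted p = 0.509). TRIM28, the corepressor that ZFP57 recruits, was at 0.01 ± 0.26, and UHRF1, which brings DNMT1 to newly copied DNA, at -0.14 ± 0.34. The extremes were NLRP5, a gene of the oocyte, at 0.65 ± 0.47 and the methyltransferase cofactor gene DNMT3L at -3.65 ± 3.00, the latter from 1 value of -6.56 on knockout array 1.

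PEG10 belongs to a wider group of genes derived from the gag sequence of retroelements. Of 11 others measured, 8 were higher and 3 lower (median 0.26), with 0 called in limma and 1 at an unadjusted p under 0.05 (9.09%, against 12.2% of all probe sets). The genotypes did not overlap for 3, 2 higher and 1 lower (27.3%, against 19.7% of all probe sets). The median was 0.42 without the dimmest 30% of probe sets, 0.17 without knockout array 2 and 0.41 without wild-type array 2. The extremes were PNMA2 at 1.27 ± 0.91 (SE) and PNMA1 at -0.45 ± 0.25, the latter without overlap. PNMA2 was at 3.47, 1.73 and 1.95 in wild type and at 1.73, 5.27 and 3.95 in knockout. Most of these values lie under the floor of 4 used as an alternative, so the size of its difference is not determined. RTL6 was at 8.84, 8.45 and 8.39 in wild type and at 8.95, 9.06 and 9.64 in knockout, higher on every knockout array (0.65 ± 0.30, adjusted p = 0.448 in limma).

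The dystrophin-associated complex, in which epsilon-sarcoglycan sits, had 6 of 9 other measured genes higher and 3 lower (median 0.43). In limma 0 were called, with 3 at an unadjusted p under 0.05 (33.3%, against 12.2% of all probe sets). The genotypes did not overlap for 4, 3 higher and 1 lower (44.4%, against 19.7% of all probe sets). UTRN, which encodes the dystrophin relative utrophin, was at 6.13, 5.00 and 5.68 in wild type and at 6.25, 7.89 and 7.07 in knockout, without overlap (1.46 ± 0.49, SE, adjusted p = 0.295). The syntrophin genes SNTB1 and SNTB2 lay on opposite sides, at 0.97 ± 0.30 and -0.92 ± 0.32, neither with overlap. SGCB, another sarcoglycan gene, was at -0.57 ± 0.66, with a wide error.

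The insulin and insulin-like growth factor pathway, which GRB10 restrains, held 1 call. Of 25 measured genes 16 were higher and 9 lower (median 0.27), and the call was among the higher, as for 0.416% of all probe sets. In limma 4 had an unadjusted p under 0.05, 3 higher and 1 lower (16%, against 12.2% of all probe sets). IRS2, the adaptor that passes the receptors' signal to phosphoinositide 3-kinase, was at 7.10, 6.97 and 7.15 in wild type and at 8.59, 8.66 and 9.05 in knockout. Every knockout array was above every wild-type array. IRS2 rose by 1.70 ± 0.26 (SE), or 3.24-fold, with an adjusted p of 0.0485 in limma. The call was lost with the array medians subtracted (adjusted p = 0.0573), without moderation (0.0599), with the replicate block (0.444), without both wild-type array 1 and knockout array 2 (0.201) and with any 1 of the 6 arrays left out (0.0943 to 0.246), while the difference lay between 1.56 and 1.78 over 14 alternatives.

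In this pathway 9 genes did not overlap, 7 higher and 2 lower, or 36.0%, against 19.7% of all probe sets. IGF1R, a receptor that GRB10 binds, was at 8.38, 8.14 and 7.88 in wild type and at 9.19, 9.71 and 9.40 in knockout. Its difference was 1.30 ± 0.28 (SE, adjusted p = 0.130 in limma, and 0.0274 with the variance trend), and 1.48 ± 0.29 in its other probe set. The adaptor gene GRB2 was at 0.82 ± 0.26, the transcription factor gene FOXO1 at 0.54 ± 0.29, and the kinase genes AKT1 and AKT2 at 0.45 ± 0.26 and 0.41 ± 0.24. The insulin receptor gene INSR was at -0.35 ± 0.42 and the adaptor gene IRS1 at -0.57 ± 0.31, both with overlap. TSC1, which encodes a brake on growth signalling, was the lowest, at 8.59, 8.06 and 8.02 against 6.15, 7.99 and 6.76 (-1.26 ± 0.49, adjusted p = 0.366).

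**Figure D5:**
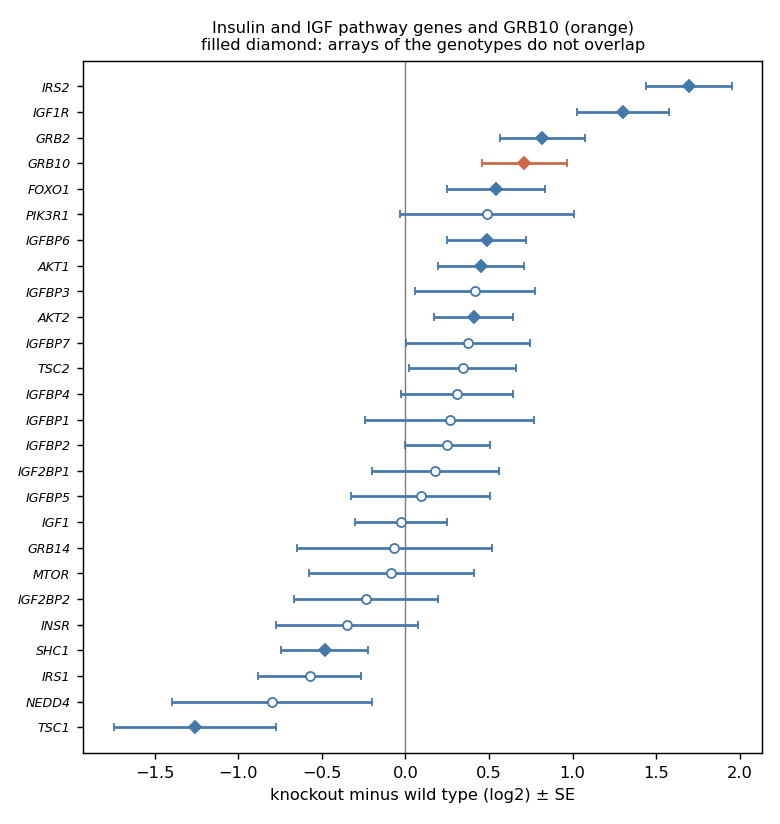
Log2 difference, knockout minus wild type, with its SE, for 25 insulin and insulin-like growth factor pathway genes (blue) and GRB10 (orange), ordered by size; filled diamonds mark genes whose arrays do not overlap. IRS2 at 1.70 and IGF1R at 1.30 are highest, GRB10 at 0.71 follows GRB2 at 0.82, and TSC1 at -1.26 is lowest.

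CDKN1C acts beside other inhibitors of cyclin-dependent kinases. Of 13 inhibitors and target genes 8 were higher and 5 lower (median 0.21), with 0 called in limma and 4 at an unadjusted p under 0.05 (30.8%, against 12.2% of all probe sets). The genotypes did not overlap for 5, 2 higher and 3 lower (38.5%, against 19.7% of all probe sets). The median was -0.011 without both wild-type array 1 and knockout array 2, 0.35 without knockout array 1, 0.0053 without knockout array 2 and 0.071 without wild-type array 2. CDKN2B, an inhibitor of the kinases that act early in the cycle, was at 9.11, 8.60 and 8.29 in wild type and at 7.24, 7.68 and 7.00 in knockout, without overlap (-1.36 ± 0.33, SE, adjusted p = 0.168). The closest relatives of CDKN1C were at 0.21 ± 0.28 for CDKN1A and 0.32 ± 0.28 for CDKN1B, both with overlap. CDKN3, a phosphatase gene, had the largest positive difference, 0.74 ± 0.29.

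IGF2R, unmeasured here, carries mannose 6-phosphate tagged enzymes to lysosomes. Of 15 measured genes of that sorting route and of lysosomal proteins, 9 were higher and 6 lower (median 0.24). In limma 0 were called and 2 had an unadjusted p under 0.05 (13.3%, against 12.2% of all probe sets). The genotypes did not overlap for 5, 3 higher and 2 lower (33.3%, against 19.7% of all probe sets). The median was 0.084 without both wild-type array 1 and knockout array 2, 0.10 without knockout array 2, 0.095 without knockout array 3 and 0.10 without wild-type array 1. The extremes were the coat adaptor gene GGA3 at 0.75 ± 0.28 (SE) and the lysosomal membrane gene LAMP2 at -0.89 ± 0.51. HEXA, which encodes a lysosomal enzyme subunit, was at 9.54, 9.08 and 9.41 in wild type and at 8.51, 8.65 and 8.69 in knockout, lower on every knockout array. The zinc finger relatives of PLAGL1, also unmeasured, were at 0.19 ± 0.43 for PLAGL2 and 0.75 ± 0.44 for PLAG1, with 0 called and 0 at an unadjusted p under 0.05.

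The genes whose values over the 6 arrays were most like those of PEG10 were MOSMO, TMEM200A, FBH1, ECHDC3 and PLEKHB1, each at a Pearson r of 0.995. They were taken from 9834 probe sets with 1 symbol and a range of at least 1. This is a description, since the 6 points hold 2 genotypes and any clean difference of the same sign gives a high r. MOSMO was at 9.92, 9.65 and 9.85 in wild type and at 8.14, 8.58 and 8.19 in knockout, a difference of -1.50. ECHDC3 was at 7.07, 6.85 and 7.21 against 1.17, 2.31 and 1.43, with knockout values under the floor of 4 used as an alternative, so the size of its difference is not determined. All 5 were lower without overlap, and as in PEG10 the highest knockout value was on array 2. Among the measured imprinted genes, r with PEG10 was 0.796 for SGCE, 0.374 for MEST, -0.473 for CDKN1C and -0.873 for GRB10.

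The cell label was set against markers of colon epithelium, all 10 of which were measured. A mean over the 6 arrays above the median of all values pooled was seen for 6 of them. KRT8, KRT18 and KRT19, EPCAM and CDH1 had wild-type means of 9.88 to 12.35, whereas the enterocyte genes CDH17 and VIL1 were at 4.44 and 5.58. All 10 were higher in the knockout, as were 51.3% of all probe sets. In limma 0 of them were called, where 0.570% of all probe sets were. An unadjusted p under 0.05 was reached by 1 (10%, against 12.2% of all probe sets). The genotypes did not overlap for 4, 4 higher and 0 lower (40.0%, against 19.7% of all probe sets). CDH1, which encodes E-cadherin, was at 10.28, 10.34 and 10.25 in wild type and at 11.34, 11.33 and 11.64 in knockout (1.15 ± 0.24, SE, 2.22-fold higher, adjusted p = 0.127), and the others without overlap were KRT8, KRT18 and KRT19. The mean over the list ran from 8.49 to 8.85 in wild type and from 8.73 to 9.50 in knockout. Leukocyte markers averaged 4.89 to 5.92 in wild type and 4.95 to 5.82 in knockout, and fibroblast and endothelial markers 5.94 to 6.81 and 6.22 to 7.12. Trophoblast markers, named because PEG10 is most active in placenta, averaged 5.31 to 6.02 and 5.22 to 6.26. Most genes of these lists were also higher in the knockout, 2 of 3 leukocyte, 5 of 6 fibroblast and endothelial and 3 of 4 trophoblast markers. None of these 3 lists held a call, with 0, 1 and 0 genes at an unadjusted p under 0.05. Over all probe sets the shares were 0.570% and 12.2%, so few or none would be met in lists this short. The extremes were CD3E (0.73 ± 0.68, SE) and LYZ (-0.82 ± 0.50) among leukocyte markers, VWF (1.30 ± 0.62) and PECAM1 (-0.22 ± 0.35) among fibroblast and endothelial markers, and HSD3B1 (0.30 ± 0.30) and GCM1 (-0.06 ± 0.42) among trophoblast markers. COL1A1, at 1.10 ± 0.26, was the 1 gene of these lists without overlap. The part of the marker shifts in the differences above was not tested.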

How the data were processed

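RNA from 3 wild-type and 3 BRCA2 knockout samples was depleted of ribosomal RNA and hybridised to Affymetrix arrays, per the labels' protocols. The deposited files give log2 values per probe set. The submitters' processing notes list RMA, R 2.11.1 and hg18. The log2 scale was read from the range of values, and which filters were applied was not stated in the sources used here. Array medians differed, as they would not had these same probe set values been quantile normalized across all arrays. Whether the arrays were normalized at an earlier step cannot be read from the medians. The small number of arrays limits precision.

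Of 19458 probe sets, 13301 carried 1 symbol, 2044 several and 4113 none. Only the first kind named a gene, by the brightest where several shared it. Symbols and gene order came from a RefSeq table (GRCh38.p14), which also gave the promoters, and no coordinate was carried between builds.

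Genotypes were compared with limma 3.58.1 in R 4.3.3 (lmFit, eBayes) over all probe sets, two-sided, with limma's moderated SE, Benjamini-Hochberg adjustment and calls at an adjusted p under 0.05. The code was tested on simulated data. Members and lists were chosen with earlier results of these data known. Named by rule were the measured members, the 10 largest differences among other imprinted genes, calls and both extremes of each other list, the nearest neighbours, and the 5 genes most like PEG10. GNAS, DLK1, UBE3A, DNMT1, CTCF, TRIM28, UHRF1, RTL6, SNTB1, SGCB, IGF1R, GRB2, FOXO1, AKT1, AKT2, INSR, IRS1, CDKN1A, CDKN1B, HEXA, TAC1, COL1A1, KRT8, KRT18, KRT19, EPCAM, CDH17 and VIL1 were added after their values were seen. Alternatives were median centring, quantile normalization, a floor of 4, leaving out the dimmest 30%, a variance trend, no moderation, the replicate number as a block, and leaving out arrays. The mean of all probe sets of a gene equals the main value for the 5 members, which have 1 each.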

Additional observations from a re-analysis of the deposited data

How the results depend on the processing

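Over 14 alternatives the log2 difference ran from -4.22 to -3.60 in PEG10, -0.96 to -0.47 in SGCE, 0.61 to 0.86 in GRB10, -0.47 to 0.03 in MEST and -0.03 to 0.52 in CDKN1C, where the last 2 changed sign in 1 alternative each.

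Calls over all probe sets, 111 in the main comparison, numbered 175 with median centring, 174 with quantile normalization, 169 with values under 4 set to 4, 184 without the dimmest 30%, 396 with a variance trend and 86 without moderation. They numbered 7 without both wild-type array 1 and knockout array 2, and 24 to 63 with any 1 array left out, fewest without knockout array 3 and most without knockout array 2. With the replicate block there were 3. Same-numbered arrays did not deviate together (r = -0.24, -0.43 and 0.06 for numbers 1, 2 and 3), so the numbers do not pair the samples.

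The insulin and insulin-like growth factor list had 0 calls, in place of 1, with median centring, without moderation, with the replicate block, without both arrays of highest median and with any 1 array left out (0 to 0), and 2, IRS2 and IGF1R, with a variance trend. The imprint control list had 1, DNMT1, with a variance trend, which also called the epithelial markers CDH1 and KRT8. The other imprinted genes, the PEG10 neighbours and the gag-derived, dystrophin-associated, mannose 6-phosphate and cyclin-dependent kinase lists had 0 calls in all 14. The causes were not tested. With 3 arrays a genotype, and these technical, a gene that missed the threshold may still differ.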
